A study of Mus musculus with 12 samples.

Results

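The response of IGF2BP2-deficient (KO) bone marrow-derived macrophages (BMMs) to interleukin-4 (IL-4) was followed in the 3 libraries of IL-4-treated KO cultures (KO M2) and the 3 libraries of untreated cultures of the same 3 KO mice (KO M0). These 6 of the 12 RNA-Seq libraries were chosen by genotype and treatment in the sample labels, and libraries of a mouse were matched by its number. The main tests compared the groups without a term for the mouse. A paired fit, with the mouse as a block, was an alternative. The KO mice descended from a cross of mice with loxP sites around exons 4 and 5 of Igf2bp2 and mice with Cre recombinase inserted into Lyz2, a gene of myeloid cells, so that the deletion was aimed at the myeloid lineage. The 3 WT mice (3 WT M0 and 3 WT M2 libraries) were littermates without floxed alleles. Control mice of the study included some with and some without Cre, and which of these 3 carried it is not stated. All marrow came from mice aged 3 to 4 months and was grown in 50 ng/ml M-CSF for 6 days, and the M2 cultures then received 20 ng/ml IL-4 for 8 h. Counts per library ranged from 26568719 to 37054582 in KO M0 and from 27347077 to 39632770 in KO M2. Values are given as CPM, that is counts of a gene scaled to a common library size after TMM normalization. Differences are given as log2 fold changes of M2 against M0. The standard error (SE) beside them is approximate, the size of the change divided by the square root of the F statistic of its test.

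IL-4 is a cytokine of type 2 immunity. Its receptor, built from IL4RA and the common gamma chain or IL13RA1, acts through JAK kinases on the transcription factor STAT6, and macrophages exposed to it take on the alternatively activated (M2) state known for the mannose receptor and tissue repair factors. IGF2BP2 is a cytoplasmic RNA-binding protein and a reader of N6-methyladenosine that stabilizes its target mRNAs.

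The labelled cell type was checked first. All 10 macrophage markers were detected, with summed levels of 6520 to 6630 CPM in KO M0 and 6660 to 6760 CPM in KO M2, although Cd14 and Fcgr1, which belong to this list, fell under IL-4. Of 10 neutrophil markers, 6 stayed under 1 CPM in every KO library, among them Ly6g and Elane. The sum of the list was 12.6 to 14.2 CPM in KO M0 and 40.0 to 46.6 CPM in KO M2. Most of it was Csf3r, the receptor of G-CSF, which rose from 8.51 ± 0.624 to 40.2 ± 3.77 CPM (mean ± SD, n = 3). All markers of lymphocytes, of mast cells, basophils and eosinophils, and of erythroid cells were under 1 CPM in every KO library. So were 7 of 8 dendritic cell markers, whose sums were 0.459 to 0.64 CPM in KO M0 and 1.69 to 1.93 CPM in KO M2. Markers of fibroblasts and stromal cells summed to 10.7 to 38.0 CPM in KO M0 and 11.5 to 31.4 CPM in KO M2, ranges that overlap. Of their 7 tested members 0 were called, or 3 with the mouse as a block. In cultures read as a whole, fewer cells of a type and less RNA per cell cannot be told apart.

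The targeted gene was read in each library. Igf2bp2 had 95.9, 84.9 and 91.6 CPM in KO M0 and 146, 129 and 129 CPM in KO M2, against means of 98 CPM in WT M0 and 211 CPM in WT M2. A count over the whole gene includes reads from exons that were not deleted, so that it does not check the deletion. Lyz2, the lysozyme gene that carries Cre, was at 22.1, 33.2 and 25 CPM in KO M0 and 11, 14.7 and 11.2 CPM in KO M2, while the WT means were 8463 and 4688 CPM. In a comparison of genotypes, loss of IGF2BP2 and loss of lysozyme therefore cannot be told apart, whereas both KO groups share these alleles.

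IL-4 changed the expression of 52.8% of the tested genes in KO macrophages. Of 12846 genes with sufficient counts, 6784 had an adjusted p under 0.05 (edgeR quasi-likelihood test, Benjamini-Hochberg adjustment), of which 3438 rose, or 26.8% of all tested, and 3346 fell, or 26.0%. Counts of called members of the gene lists below are to be read beside these 26.8% and 26.0%. The median log2 fold change over all tested genes was 0.01. With the mouse as a block 7472 genes were called. Most changes were small, as 5264 of the 6784 genes (77.6%) moved by less than 2-fold. The largest changes were mostly increases. There were 682 genes raised and 838 lowered at least 2-fold (5.31% and 6.52% of the tested genes). In contrast, 134 were raised and 33 lowered by a log2 fold change of 3 or more and 58 raised and 4 lowered by 5 or more. Of the called genes, which were chosen from the same libraries, 6766 moved in the same direction in 3 of 3 mice. For 6686 of the called genes the KO M0 and KO M2 libraries did not overlap, which held for 63.4% of all tested genes. The share of rising genes among the called ones was 50.7% and depended on the scale, with 39.2% when limma was applied to log2(TPM + 1), where the median of all genes lay at -0.055. In a principal component analysis of the KO libraries, treatment separated them on the first component (79.7% of the variance). On the second (6.7%) both libraries of mouse 1 stood apart, at 16.7 and 19.9, from those of mice 2 and 3, at -13.5 to -7.03.

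**Figure D1:**
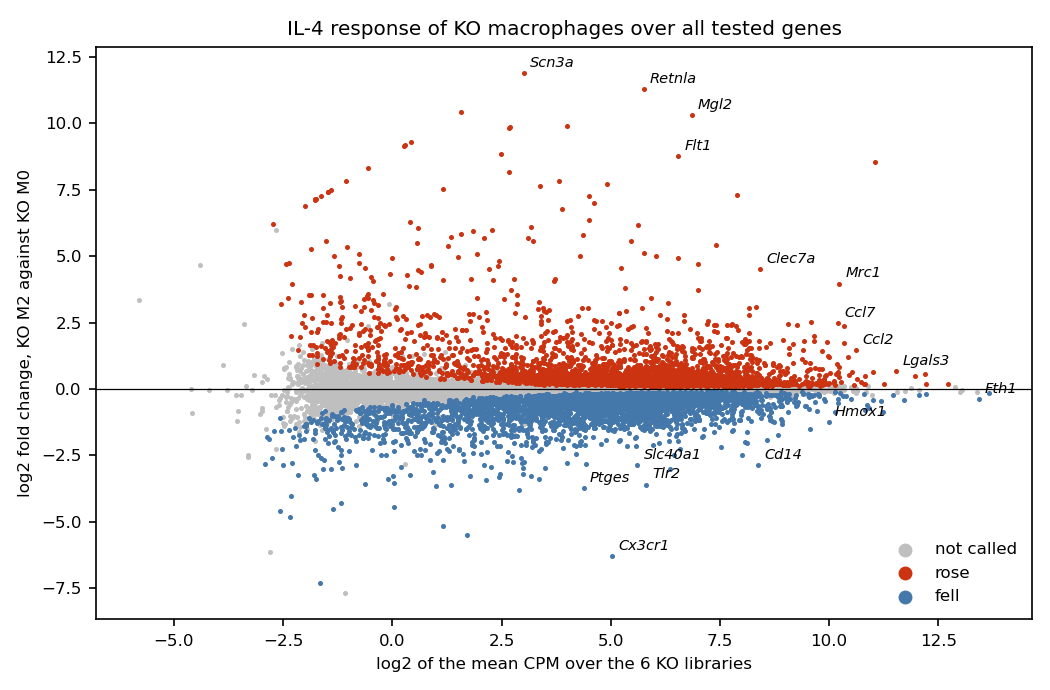
Response of each tested gene to IL-4 in KO macrophages. The x axis gives the log2 of the mean CPM over the 6 KO libraries and the y axis the log2 fold change of KO M2 against KO M0, each point is a gene, and red and blue mark genes that rose or fell at an adjusted p under 0.05 (1 gene without counts in the KO libraries is not drawn). The labelled increases reach 11.27 (Retnla) and 10.31 (Mgl2), Scn3a with 0 counts in KO M0 is drawn at a fitted value that is no measure of size, and the labelled decreases end at -6.28 (Cx3cr1).

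Genes of the IL-4 receptor and its signalling chain moved in both directions. Of 15 tested genes of this list 3 rose and 6 fell (20.0% and 40.0%, against 26.8% and 26.0% of all tested genes). The median log2 fold change was 0.07, and -0.02 with limma on log2(TPM + 1). The alpha chain of the receptor, Il4ra, had 92.9, 94.2 and 83.5 CPM in KO M0 and 128, 133 and 128 CPM in KO M2 (log2 fold change 0.52, SE 0.07, adjusted p = 3.76e-05). The kinase Jak2 went from 33.2, 33.9 and 31.4 to 95.9, 102 and 95.6 CPM (log2 fold change 1.58, SE 0.08, adjusted p = 7.27e-09). In both, all KO M2 libraries lay above all KO M0 libraries. Il13ra1, the second chain of the type II receptor, was low and fell from 2.57, 2.2 and 1.94 to 0.527, 0.828 and 0.808 CPM (log2 fold change -1.60, SE 0.26, adjusted p = 0.00018). The mediator Stat6 itself fell slightly, from 306, 314 and 309 to 262, 258 and 248 CPM (log2 fold change -0.28, SE 0.04, adjusted p = 7.6e-05).

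Among 15 inhibitors of cytokine signalling, 6 rose and 3 fell (40.0% and 20.0%, against 26.8% and 26.0% of all tested genes). Those that rose strongly were STAT target genes of the SOCS family. Cish was at 0.331, 0.451 and 0.332 CPM in KO M0 and at 52.1, 48 and 45.5 CPM in KO M2 (a 128-fold increase, adjusted p = 8.29e-12). Socs1, an inhibitor of JAK kinases, went from 2.2, 1.86 and 1.41 to 107, 75.5 and 77.2 CPM (log2 fold change 5.58, SE 0.23, adjusted p = 9.59e-10). Socs2, a regulator of growth hormone signals, went from 0.0735, 0.239 and 0.415 to 18.5, 17.6 and 17.5 CPM (log2 fold change 6.10, SE 0.23, adjusted p = 3.76e-10). The treated and untreated libraries were far apart for all of these genes. Socs3, which restrains gp130 cytokines, moved the other way, from 18.4, 18.7 and 12.6 to 10.1, 9.73 and 7.97 CPM (log2 fold change -0.84, SE 0.15, adjusted p = 0.000448). So did the MAP kinase phosphatase Dusp1, from 129 ± 10 to 33 ± 2.94 CPM.

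Of 22 tested effectors of alternative activation 20 rose and 0 fell, with a median log2 fold change of 5.21. The list holds products of IL-4-treated macrophages and was chosen with earlier results of these data known. Members at or near 0 counts in KO M0, such as Chil4, Rnase2a and Il31ra, passed the count filter through the IL-4-treated libraries and could hardly fall. Cd209a, Cd209d, Alox15 and Ear11 were not tested. Retnla (chr16:48842551-48844461, GRCm38), which encodes the secreted protein RELMα, went from 0.0367, 0.0796 and 0 to 120, 96.5 and 108 CPM (log2 fold change 11.27, SE 0.52, adjusted p = 2.29e-09), with 4 counts over the KO M0 libraries and 10927 over the KO M2 libraries. All 3 mice showed this increase.
Several members of this list are lectins, which bind sugars on pathogens and glycoproteins. The mannose receptor Mrc1 rose from 131, 148 and 155 to 2100, 2351 and 2324 CPM (log2 fold change 3.96, SE 0.11, adjusted p = 3.8e-11). The beta-glucan receptor Clec7a rose from 29.4, 27.4 and 29.4 to 727, 643 and 605 CPM (log2 fold change 4.52, SE 0.11, adjusted p = 7.69e-12). The paralogs Clec10a (7.72 ± 1.06 to 334 ± 9.35 CPM) and Mgl2 (0.11, 0.212 and 0.194 to 244, 220 and 230 CPM, log2 fold change 10.31, SE 0.49, adjusted p = 3.1e-09) rose as well. For such near-identical genes the division of shared reads is uncertain. The same applies to the chitinase-like genes. Chil3 went from 1.36, 1.51 and 1.36 to 22.9, 23.2 and 29.2 CPM (log2 fold change 4.15, SE 0.33, adjusted p = 3.74e-07). Chil4 had 0 counts in KO M0 and 100 in KO M2, an increase of at least 31.5-fold against a floor of 3 counts over the group (lower 95% limit 25.2).
Other members with large increases were the arginine transporter Slc7a2 (log2 fold change 7.30), the VEGF receptor Flt1 (8.75), the cholesterol 25-hydroxylase Ch25h (6.76) and the EGF receptor ligand Hbegf (6.16). The interleukin-31 receptor gene Il31ra had 1 count in KO M0 and 1308 in KO M2, a ratio of 1240 (exact 95% interval 222 to 48900, counting error only). The transglutaminase Tgm2 rose less, from 72, 69.2 and 69.3 to 122, 132 and 143 CPM (log2 fold change 0.91, SE 0.23, adjusted p = 0.00511). The members that did not pass the test were F13a1, with 7.55 ± 1.28 CPM in KO M0 and 6.31 ± 0.543 CPM in KO M2, and Fabp4, with 9.25 ± 0.997 and 7.66 ± 1.22 CPM. They passed it in 1 and 4 of 19 alternatives.

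**Figure D2:**
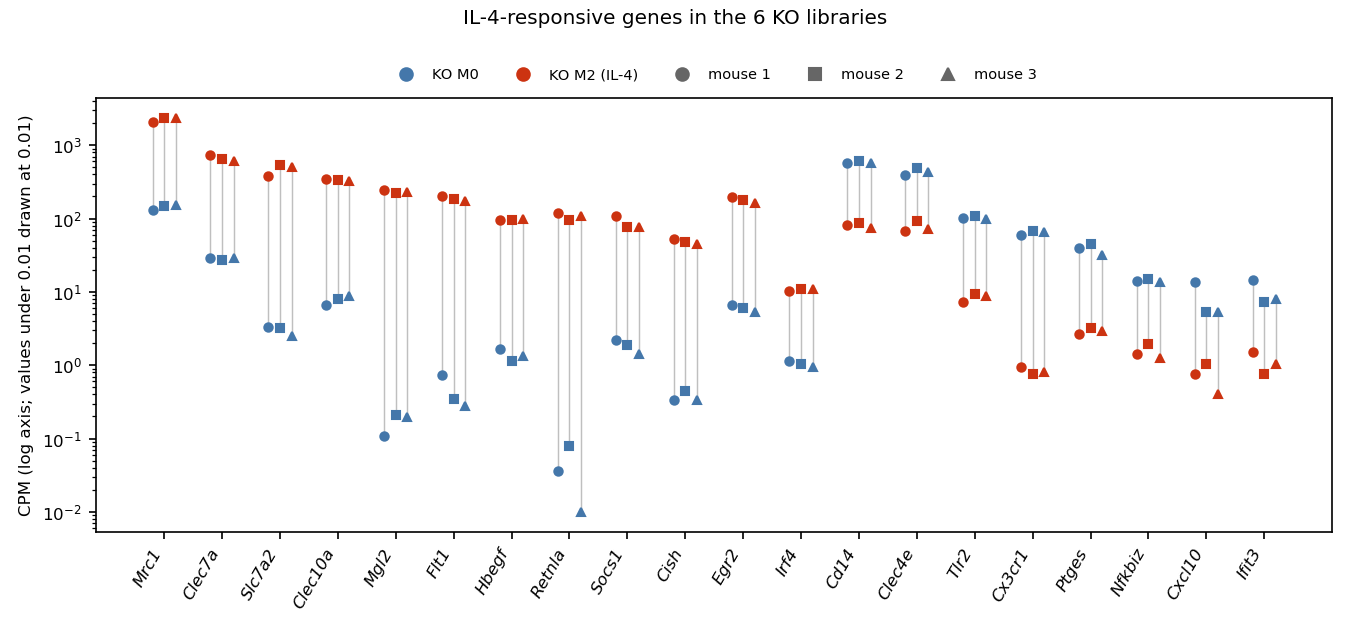
Levels of 20 genes in the 6 KO libraries. The y axis is CPM on a log scale, blue marks KO M0 and red KO M2, symbols mark the 3 mice, and a grey line joins the libraries of a mouse. For each gene shown the 3 KO M2 libraries lie on one side of the 3 KO M0 libraries, above them from Mrc1 to Irf4 and below them from Cd14 to Ifit3.

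The 15 genes with the largest increase among those averaging 5 CPM or more also held genes outside these lists. Scn3a, a subunit of a voltage-gated sodium channel, had 0 counts in all KO M0 libraries and 15.3, 17.6 and 15.7 CPM in KO M2, at least 527-fold more against the floor of 3 counts over the group (lower 95% limit 428). The homeobox gene Msx3 had 3 counts in KO M0 and 3329 in KO M2 (ratio 1050, exact 95% interval 359 to 5090), and the potassium channel gene Kcnd3 had 2 and 1163 (ratio 550, 152 to 4540). Pdcd1lg2, which encodes the checkpoint ligand PD-L2, had 1 and 1333 counts (ratio 1260, 226 to 49800). These ratios rest on very few counts in KO M0, so that their size is uncertain. Edn1 (endothelin-1), Ablim1 (an actin-binding LIM protein), the adhesion molecule Cdh1 (E-cadherin) and the serpin gene Serpina3g had log2 fold changes of 8.18, 7.83, 7.70 and 7.27. Of these Edn1 rested on 4 counts in KO M0 (ratio 305, exact 95% interval 119 to 1120). The 15 largest decreases were smaller, from -6.28 for Cx3cr1 to -2.81 for Rnd3, and included Rnf183 (-3.79), the caveolin gene Cav1 (-3.39), the HGF receptor gene Met (-3.28), Sncaip (-3.32), the proteoglycan gene Sdc1 (-3.00), Mfsd6 (-2.99) and Ralgps1 (-2.97).

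Promoter sequence was available from RefSeq (GRCm38.p6) for 10 of the 15 most increased genes (14 promoters), as windows from 250 bases before to 50 bases after each start site. They were searched for TTCNNNNGAA, the palindrome with 4 free bases that STAT6 prefers, and for TTCNNNGAA, the spacing with 3 free bases that other STAT proteins bind. Both read the same on either strand, and matches may overlap each other. The matches in these genes are shown because they are the strongest increases of the data, with the motif in capitals and 5′ to 3′ on the strand of the gene.
Retnla: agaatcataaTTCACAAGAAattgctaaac
Pdcd1lg2: catgctccagTTCCTCAGAAaccattctgg
Edn1: gtgactttgcTTCTGGAGAAactcttgatt
Ablim1: aatggcattaTTCAGAGGAAaatgaacttg
Il31ra: cctgaagggtTTCCAGGAAattgtgataa
Serpina3g: taagttatagTTCCCAGAAatcacccggt
The first 4 hold the motif with 4 free bases, at chr16:48842454-48842483 (plus strand, motif beginning 145 bases before the start), chr19:29410827-29410856 (plus, 82 bases), chr13:42301281-42301310 (plus, 185 bases) and chr19:57197849-57197878 (minus, 237 bases). The last 2 hold the motif with 3 free bases, at chr13:112580835-112580863 (minus, 191 bases) and chr12:104236104-104236132 (plus, 33 bases). TTCNNNNGAA was present in 6.95% of all 32851 promoters of the table, in 5.64% of the promoters of tested genes, and in 9.79% of 674 promoters of genes raised at least 2-fold. It was present in 6.05% of those of genes lowered at least 2-fold, and in 5.6% of those of genes that were not called. For TTCNNNGAA these shares were 8.3%, 6.87%, 7.57%, 7.44% and 7.02%. Among the 15 most decreased genes, Ptges held TTCNNNNGAA and Rnf183 held TTCNNNGAA, each 1 of 11 genes with promoter sequence. Of the 10 most increased genes with sequence, 4 and 2 held them. A match is only a stretch of letters and does not show that a factor binds there.

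Transcription factors linked to alternative activation mostly rose, with 17 of 25 higher, 5 lower and a median log2 fold change of 0.90. The zinc finger factor Egr2 went from 6.61, 5.97 and 5.37 to 197, 179 and 165 CPM (log2 fold change 4.92, SE 0.10, adjusted p = 2.83e-12). Irf4, which is required for much of the M2 programme, went from 1.14, 1.03 and 0.94 to 10.3, 11 and 10.9 CPM (log2 fold change 3.38, SE 0.25, adjusted p = 2.08e-07). Batf3, an AP-1 family partner of IRF factors, went from 0.992, 1.11 and 0.691 to 13.4, 12.2 and 11.3 CPM (log2 fold change 3.72, SE 0.19, adjusted p = 6.5e-09). No KO M2 library overlapped with KO M0 for these factors. Bhlhe40 (3.73) and Nfil3 (2.85) also had large log2 fold changes, whereas those of Myc (0.94), Klf4 (0.72) and the lipid-sensing receptor Pparg (0.64) were below 1. Klf2 (-0.64), Bhlhe41 (-0.66), Nr4a1 (-1.13), Maf (-0.28) and Id3 (-1.25) fell. Cebpb, a C/EBP family factor, had 106 ± 8.44 CPM in KO M0 and 122 ± 5.88 CPM in KO M2 and did not pass the test, but did with the mouse as a block (adjusted p = 0.019 in the edgeR fit).

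The called chemokine ligands rose in the CC class and fell in the CXC and CX3C classes, where 4 and 5 ligands were not called. Of 11 tested CC chemokine ligands, 7 rose and 0 fell (median log2 fold change 1.45), and of 11 ligands of the CXC and CX3C classes 0 rose and 6 fell (median -0.71). The eosinophil attractant Ccl24 went from 0.0735, 0.0265 and 0.194 to 23.9, 20.4 and 17.7 CPM (log2 fold change 7.64, SE 0.48, adjusted p = 3.91e-08). The monocyte attractant Ccl7 went from 317, 361 and 397 to 1998, 1890 and 2099 CPM (log2 fold change 2.48, SE 0.16, adjusted p = 5.93e-08). Ccl2, with the same function, went from 776, 855 and 901 to 2308, 2216 and 2416 CPM (log2 fold change 1.45, SE 0.12, adjusted p = 4.75e-07). The last 2 were already abundant before treatment. Ccl8 (6.06, from 4 counts in KO M0, ratio 69.5, exact 95% interval 26.9 to 257), Ccl22 (4.14), Ccl12 (3.80) and Ccl4 (1.43) complete the rising group.
Among the falling ligands, Cxcl10, an interferon-induced attractant of T cells, had 13.5, 5.3 and 5.34 CPM in KO M0 and 0.753, 1.03 and 0.404 CPM in KO M2 (log2 fold change -3.43, SE 0.56, adjusted p = 0.000189). The KO M0 library of mouse 1 was well above the others. The neutrophil attractants Cxcl1 (-2.50), Cxcl2 (-1.83) and Cxcl3 (-0.71) fell, as did Cxcl16 (-1.32) and Cxcl14 (-0.98).
Of 9 chemokine receptors, 2 rose and 3 fell (22.2% and 33.3%, against 26.8% and 26.0% of all tested genes). Cx3cr1 (chr9:119901616-120069879), the fractalkine receptor of monocytes and resident macrophages, showed the largest decrease among genes averaging 5 CPM or more, from 59.8, 67.2 and 65.9 to 0.942, 0.75 and 0.808 CPM (log2 fold change -6.28, SE 0.20, adjusted p = 7.99e-11). Cxcr4, the receptor for CXCL12, fell from 7.02, 5.01 and 5.28 to 1.51, 1.47 and 1.56 CPM (log2 fold change -1.92, SE 0.31, adjusted p = 0.000168). Cxcr3 fell by 0.84 on the log2 scale. Ccr1 rose from 78.6, 73.5 and 71.9 to 134, 110 and 101 CPM (log2 fold change 0.62, SE 0.12, adjusted p = 0.000589). Cxcr2 rose at a level below 1 CPM.

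Inflammatory cytokines and mediators mostly fell, as 10 of 17 tested genes were lower and 5 higher (median log2 fold change -1.01), while Il6, Il12b and Nos2 had too few counts to be tested. Ptges, the terminal synthase of prostaglandin E2, fell from 40.1, 44.5 and 31.9 to 2.64, 3.23 and 2.91 CPM (log2 fold change -3.72, SE 0.14, adjusted p = 2.45e-10). Nfkbiz, a nuclear IκB protein needed for secondary response genes, fell from 14, 15.1 and 13.8 to 1.43, 1.94 and 1.27 CPM (log2 fold change -3.20, SE 0.15, adjusted p = 2.65e-09). Tnf fell from 74.2, 80.4 and 76.9 to 29, 25.9 and 26.7 CPM (log2 fold change -1.51, SE 0.09, adjusted p = 1.96e-08). The groups did not overlap in any of these genes. Acod1, the itaconate-producing enzyme, also fell, with large differences between the mice in KO M2 (128, 204 and 157 CPM in KO M0, 43.5, 88.1 and 64.3 CPM in KO M2, log2 fold change -1.32, SE 0.33, adjusted p = 0.00419). The members that rose were Ptgs2 (2.02), Nfkb1 (1.88), the anti-inflammatory cytokine Il10 (1.72), the NF-κB inhibitor Tnfaip3 (0.61) and Osm (0.37). Thus cyclooxygenase 2 (Ptgs2) and Ptges, consecutive enzymes of prostaglandin E2 synthesis, moved in opposite directions.

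Receptors for microbial patterns fell in 10 of 18 cases and rose in 5 (median -0.83). Tlr2, which senses bacterial lipoproteins, went from 103, 109 and 97.6 to 7.31, 9.42 and 8.67 CPM (log2 fold change -3.60, SE 0.12, adjusted p = 8.09e-11). Cd14, the co-receptor for lipopolysaccharide, went from 572, 612 and 567 to 80.9, 86.2 and 73.7 CPM (log2 fold change -2.86, SE 0.09, adjusted p = 7.15e-11). The C-type lectin Clec4e, which senses mycobacterial glycolipid, went from 388, 491 and 429 to 68.3, 93.2 and 72.9 CPM (log2 fold change -2.48, SE 0.23, adjusted p = 1.42e-06). Not all Toll-like receptors followed, since Tlr1 (1.79), Tlr8 (1.41), Tlr6 (0.57), Tlr4 (0.46) and Tlr7 (0.45) rose, while Tlr5 (-2.68), Tlr13 (-1.08) and Tlr9 (-0.71) fell. Tlr2 and its partner Tlr1 therefore moved in opposite directions.

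Interferon-stimulated genes were lower in 18 of 26 cases and higher in 5 (median -1.06). Ifit3 went from 14.6, 7.24 and 7.94 to 1.51, 0.75 and 1.05 CPM (log2 fold change -3.20, SE 0.35, adjusted p = 6.19e-06). Ifit1, of the same family, went from 17.3, 7.64 and 9.07 to 2.3, 2.04 and 1.56 CPM (log2 fold change -2.53, SE 0.31, adjusted p = 1.9e-05). In both, and in Cxcl10, the M0 library of mouse 1 had the highest level. Without both libraries of mouse 1, 20 of these genes were called, against 23 with it. Ifit2 (-1.99), the antiviral nucleotide genes Cmpk2 (-1.91) and Rsad2 (-1.86), Oas2 (-1.56), the ubiquitin-like modifier Isg15 (-1.53) and Rtp4 (-2.01) also fell. Mx1 (6.16 ± 2.29 to 12.6 ± 0.649 CPM), Usp18 (6.99 ± 2.33 to 12.3 ± 2.26 CPM), Zbp1 (0.47), Bst2 (0.40) and Oas1a (0.16) rose, of which Oas1a lost its call in 10 and Zbp1 in 9 of 19 alternatives. Stat2 and Irf9, members of the interferon-activated complex, had log2 fold changes of -0.16 and -0.65.

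Genes of antigen presentation and co-stimulation rose in part. Of 10 tested genes of MHC class II presentation 4 rose and 0 fell (median 0.27). The invariant chain Cd74 went from 48.9, 48.9 and 44.1 to 161, 133 and 112 CPM (log2 fold change 1.52, SE 0.22, adjusted p = 6.41e-05). The peptide exchange factor H2-DMa (1.12) and, at a level near 1 CPM, the class II transactivator Ciita (1.48) rose with it. Of 12 co-stimulators and checkpoint ligands 6 rose and 3 fell (median 0.53). The sign of this median depended on the filter, as it was negative when only genes averaging 5 CPM or more were fitted. Besides Pdcd1lg2, Cd274, which encodes PD-L1, went from 23.3, 18.9 and 19.7 to 63.7, 69.1 and 69.7 CPM (log2 fold change 1.72, SE 0.16, adjusted p = 1.8e-06). The receptor Cd40 went from 8.96, 9.87 and 10.2 to 56.5, 53 and 55.1 CPM (log2 fold change 2.50, SE 0.09, adjusted p = 1.73e-10). Icosl (-2.70) and Tnfsf9 (-1.82) fell. Both PD-1 ligands therefore rose in all 3 mice.

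Growth and repair factors rose in 9 of 17 cases and fell in 2 (median 0.34). Hbegf went from 1.65, 1.14 and 1.33 to 96.2, 95.1 and 99.5 CPM. The platelet-derived growth factor gene Pdgfa went from 23, 20.3 and 23.1 to 142, 128 and 137 CPM (log2 fold change 2.62, SE 0.10, adjusted p = 3.24e-10). Igf1, a growth factor of repair macrophages, went from 602 ± 40.2 to 1047 ± 79.3 CPM. Pdgfc had a log2 fold change of 3.01. Pdgfb fell by 0.96 on the log2 scale, so that the A and B chains of PDGF moved in opposite directions.
Fc and complement receptors rose in 9 of 18 cases and fell in 2 (median 0.17). The inhibitory receptor Fcgr2b went from 9.73, 8.81 and 9.98 to 240, 242 and 259 CPM (log2 fold change 4.70, SE 0.22, adjusted p = 2.29e-09). The activating receptor Fcgr3 went from 174, 193 and 200 to 545, 561 and 575 CPM (log2 fold change 1.57, SE 0.08, adjusted p = 8.07e-09). The high-affinity receptor Fcgr1 fell from 113, 94.7 and 101 to 46.6, 43.9 and 49.7 CPM (log2 fold change -1.14, SE 0.10, adjusted p = 1.26e-06). These receptor genes are related, and how reads they share were counted is not given.
Genes of macrophage fusion and of osteoclasts rose in 9 of 18 cases and fell in 3 (median 0.33). Cdh1, which takes part in IL-4-induced fusion, went from 0.404, 0.318 and 0.166 to 60.4, 61.5 and 59.6 CPM (log2 fold change 7.70, SE 0.18, adjusted p = 7.69e-12). The integrin chain Itgb3 went from 0.588, 0.716 and 0.83 to 42.4, 40.6 and 39.2 CPM (log2 fold change 5.81, SE 0.12, adjusted p = 2.83e-12). Ocstamp, a membrane protein of osteoclast fusion, went from 1.62, 0.822 and 0.747 to 9.45, 5.82 and 5.3 CPM (log2 fold change 2.72, SE 0.30, adjusted p = 7.34e-06). All KO M2 libraries were above those of KO M0 for these genes. Dcstamp, the receptor-like protein of cell fusion, had 28.1 ± 3.86 CPM in KO M0 and 26.6 ± 4.26 CPM in KO M2 and did not pass the test. Of 17 genes of matrix proteases and plasminogen activation 5 rose and 6 fell (29.4% and 35.3%, against 26.8% and 26.0% of all tested genes). The collagenase gene Mmp13 was at 65.2, 68.5 and 60 CPM in KO M0 and 343, 361 and 313 CPM in KO M2 (log2 fold change 2.39, SE 0.13, adjusted p = 1.29e-08). The membrane-bound collagenase Mmp14 fell by 2.16 on the log2 scale. Scavenger receptors fell in 9 of 19 cases and rose in 4 (median -0.26). Msr1, the class A scavenger receptor, went from 666, 697 and 678 to 265, 309 and 298 CPM, and Colec12 had a log2 fold change of -1.22. Cd36, which takes up oxidized lipoproteins, rose from 3651, 3786 and 3965 to 5669, 5425 and 5566 CPM, and the oxidized LDL receptor Olr1 had a log2 fold change of 1.35.

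Cell cycle genes mostly fell. Of 34 genes, 29 were lower and 1 was higher, with a median log2 fold change of -0.89 against 0.01 over all tested genes. The proliferation marker Mki67 went from 536, 556 and 559 to 197, 278 and 265 CPM (log2 fold change -1.16, SE 0.15, adjusted p = 3.82e-05). The topoisomerase gene Top2a went from 594, 556 and 571 to 228, 259 and 258 CPM (log2 fold change -1.21, SE 0.13, adjusted p = 5.3e-06). The S phase factor E2f2 went from 66.7, 64.5 and 64.1 to 21.7, 20.2 and 20.3 CPM (log2 fold change -1.65, SE 0.12, adjusted p = 1.7e-07). The spindle checkpoint kinase Bub1 fell by 1.40 on the log2 scale. In each of these 4 genes the lowest KO M0 library was above the highest KO M2 library. The 6 subunits of the MCM helicase had log2 fold changes from -1.12 (Mcm7) to -0.78 (Mcm5). The gene that rose was Cdkn1a, the cyclin-dependent kinase inhibitor p21, from 401, 383 and 373 to 672, 657 and 673 CPM (log2 fold change 0.79, SE 0.06, adjusted p = 1.26e-07).

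**Figure D3:**
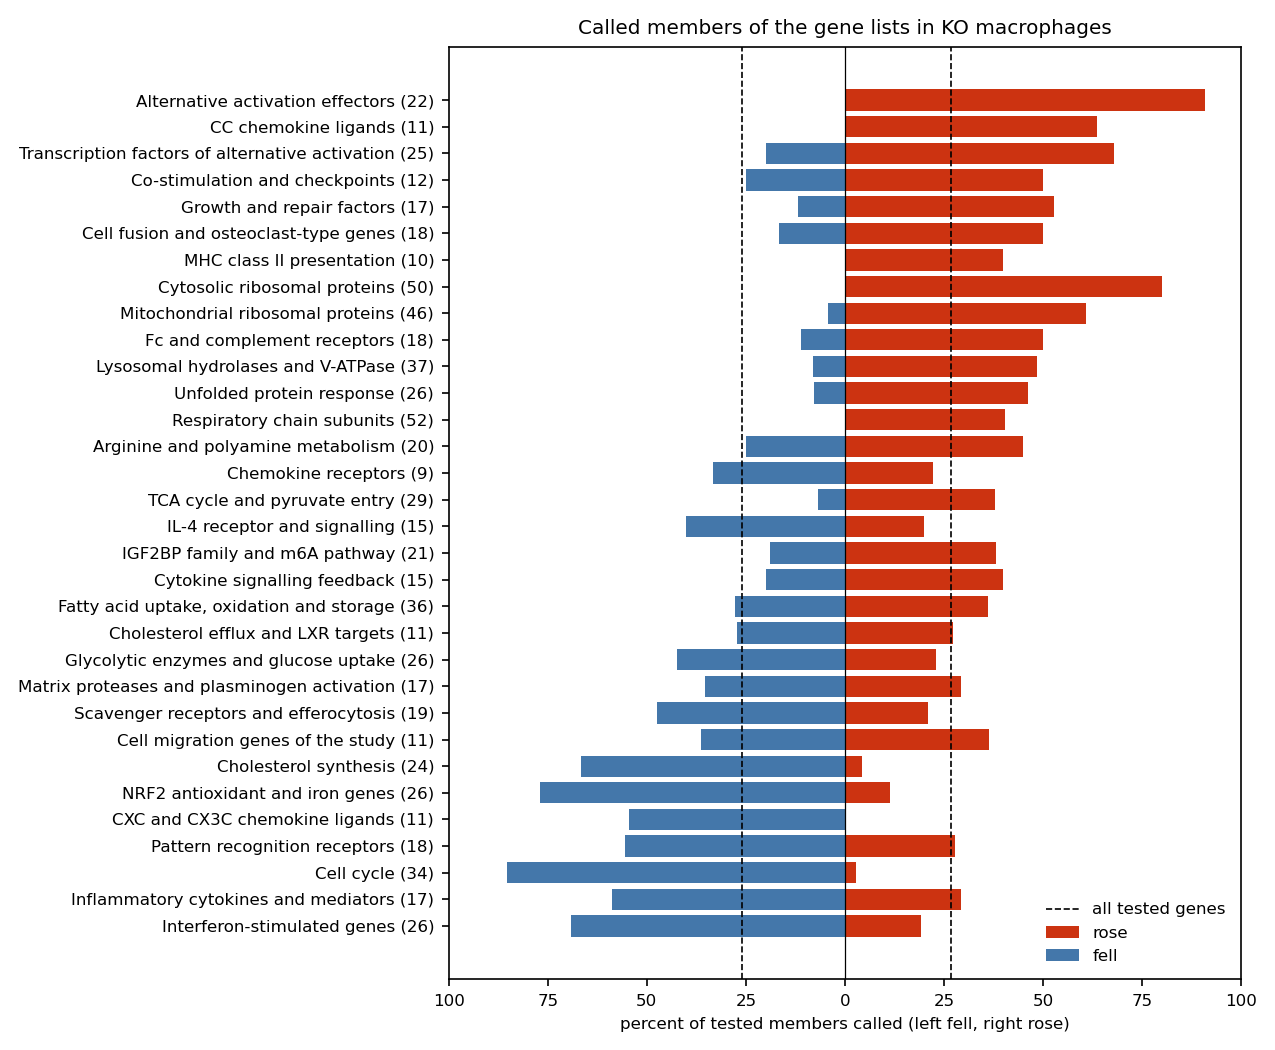
Called members of the 32 gene lists in KO macrophages. Bars give the percent of tested members that rose (red, right) or fell (blue, left) at an adjusted p under 0.05, the number of tested members stands in parentheses, lists are ordered by their median log2 fold change, and dashed lines give the shares over all tested genes (26.8% rose, 26.0% fell). Alternative activation effectors lie at the top with 90.9% risen, and interferon-stimulated genes at the bottom with 69.2% fallen.

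Genes of arginine and polyamine metabolism did not move as one. Of 20 tested genes 9 rose and 5 fell (median 0.13). Beside Slc7a2, spermidine synthase (Srm, 0.65) and Sat1 (0.68) rose, whereas Amd1 (-0.63), Sms (-0.49) and the exporter Slc7a7 (-1.59) fell. Odc1, the ornithine decarboxylase, had 277 ± 2.11 CPM in KO M0 and 282 ± 9.85 CPM in KO M2.
Of 26 glycolytic genes 6 rose and 11 fell (23.1% and 42.3%, against 26.8% and 26.0% of all tested genes, median -0.14). The lactate exporter Slc16a3 fell from 139, 135 and 119 to 48.8, 48.6 and 46.9 CPM (log2 fold change -1.45, SE 0.14, adjusted p = 1.85e-06). Hexokinase 1 (Hk1) fell from 154, 161 and 157 to 76, 88.3 and 84.5 CPM (log2 fold change -0.92, SE 0.06, adjusted p = 5.14e-08). The regulator Pfkfb4 (1.51), the transporter Slc2a6 (0.90) and hexokinase 2 (Hk2, 0.59) rose.
In the lists of mitochondrial energy production and of protein synthesis, called genes were mostly higher, by small amounts. Respiratory chain subunits rose in 21 of 52 cases and fell in 0 (median 0.15). Mitochondrial ribosomal proteins rose in 28 of 46 and fell in 2 (median 0.19). Cytosolic ribosomal proteins rose in 40 of 50 and fell in 0 (median 0.21), and genes of the TCA cycle rose in 11 of 29 and fell in 2 (median 0.11). Uqcrc1 of complex III went from 184, 181 and 178 to 260, 230 and 228 CPM (log2 fold change 0.40, SE 0.05, adjusted p = 2.85e-05). Rps18 of the small ribosomal subunit went from 475, 531 and 518 to 713, 615 and 629 CPM (log2 fold change 0.36, SE 0.06, adjusted p = 0.000303). With limma on log2(TPM + 1), where the median of all genes was -0.055, these medians were 0.06, 0.10, 0.12 and 0.02, and 24 cytosolic ribosomal genes and 8 TCA cycle genes were called. Without both libraries of mouse 1, 8, 18, 11 and 7 genes of these lists were called instead of 21, 30, 40 and 13, while 5675 of 13121 genes were called over all. Respiratory chain calls were also fewer without the KO M2 library of mouse 1 (11) and without both libraries of mouse 3 (13), and TCA cycle calls (8) without the KO M2 library or both libraries of mouse 3 and without those of mouse 2. Larger single increases were those of Mrpl15 (0.82), Mrpl3 (0.80), Suclg1 (0.36), Ndufs8 (0.31) and Rpl10a (0.31).

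Cholesterol synthesis fell in 16 of 24 genes and rose in 1 (median -0.53). Msmo1, a sterol methyl oxidase, went from 151, 138 and 140 to 68.9, 49.2 and 51.1 CPM (log2 fold change -1.35, SE 0.11, adjusted p = 6.13e-07). The cholesterol carrier Stard4 fell by 1.16 on the log2 scale, and Scap, which escorts the SREBP factors, was the member that rose (0.20). Sqle (-0.71) fell with them. The exporters of cholesterol moved apart. Abcg1 rose from 35.6, 41.4 and 41.3 to 162, 201 and 196 CPM (log2 fold change 2.24, SE 0.13, adjusted p = 1.38e-08). Abca1 fell from 52.6, 59.1 and 64.3 to 16.2, 25.3 and 23.6 CPM (log2 fold change -1.43, SE 0.22, adjusted p = 0.000109), and the LXRα gene Nr1h3 fell by 1.54 on the log2 scale. Of 36 genes of fatty acid handling 13 rose and 10 fell (36.1% and 27.8%, against 26.8% and 26.0% of all tested genes), the former with the triglyceride synthesis gene Dgat2 (0.86) and the oxidation genes Acadm (0.39) and Hadhb (0.36), the latter with the activating enzymes Acsl3 (-0.78) and Acsl4 (-0.69).
Lysosomal genes rose in 18 of 37 cases and fell in 3 (median 0.17). The largest increases were subunits of the proton pump. Atp6v0d2 went from 14.5, 9.42 and 10.6 to 119, 80.3 and 83.7 CPM (log2 fold change 3.05, SE 0.25, adjusted p = 4.69e-07) and Atp6v0a1 from 230 ± 7.63 to 1307 ± 38.6 CPM. The protease genes Ctsc (-0.84) and Ctsh (-0.34) fell. Of 26 genes of the unfolded protein response, 12 rose and 2 fell (median 0.17), led by the disulfide isomerase Pdia4 (1.46) and Ddit3 (0.95), and 8 were called without both libraries of mouse 1.
Genes of the antioxidant and iron programme fell in 20 of 26 cases and rose in 3 (median -0.66). The iron exporter ferroportin, Slc40a1, fell from 77.4, 85.1 and 94.7 to 9.49, 12.7 and 13 CPM (log2 fold change -2.86, SE 0.14, adjusted p = 3.66e-09). Heme oxygenase, Hmox1, fell from 1404, 1471 and 1420 to 707, 545 and 559 CPM (log2 fold change -1.25, SE 0.12, adjusted p = 1.92e-06). Glutathione reductase, Gsr, fell from 211, 226 and 205 to 60.8, 65.6 and 61.7 CPM (log2 fold change -1.77, SE 0.06, adjusted p = 2.23e-10). The transferrin receptor Tfrc, which takes up iron, rose from 308, 257 and 255 to 853, 782 and 788 CPM (log2 fold change 1.56, SE 0.09, adjusted p = 1.94e-08), as did the hypoxia factor Epas1 (1.04). Genes of iron export and heme breakdown were thus lower, and the gene of iron uptake was higher, in all 3 mice.

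Measured per length, as TPM, the response also shifted the most abundant transcripts. The 10 called genes with the largest gain went from 13182 TPM in sum to 32201 TPM, and the 10 with the largest loss from 88093 to 65831 TPM. Among the former, Ccl7 went from 892 to 4697 TPM, Ccl2 from 2038 to 5285 TPM and the galectin Lgals3 from 4462 to 6750 TPM, followed by the endocytosis genes Snx5, Clta and Ap2m1 and by Cd36, Atp6v0a1 and Adam8. The ferritin genes Fth1 (28360 to 20694 TPM) and Ftl1 (27870 to 23618 TPM) lost most, before Prdx1, Vim, Tmsb4x, Spp1, Hmox1, Ifitm3, Ctsl and Ywhah. The fold changes of Ftl1 (log2 fold change -0.15, SE 0.05, adjusted p = 0.0283) and Tmsb4x (log2 fold change -0.21, SE 0.06, adjusted p = 0.0131) were small beside their abundance. Of the other genes among the 10 most abundant in KO M2, Eef1a1 rose slightly (0.17), and Actb and Tpt1 did not pass the test. Nor did Ctsd (log2 fold change -0.10), but it did with the mouse as a block (adjusted p = 0.0297 in the edgeR fit).

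The RNA-binding proteins around IGF2BP2 were followed as a list of 21 tested genes, of which 8 rose and 4 fell (median 0.04). These were 38.1% and 19.0%, against 26.8% and 26.0% of all tested genes. Igf2bp2 counts rose (log2 fold change 0.57, SE 0.13, adjusted p = 0.00297), which covers reads of any part of the gene. The related Igf2bp3 had 4.7, 3.55 and 2.71 CPM in KO M0 and 5.42, 4.58 and 4.41 CPM in KO M2 (log2 fold change 0.40, SE 0.15, adjusted p = 0.0426), groups that overlapped. Igf2bp1 had too few counts to be tested. The methyltransferase subunit Mettl3 rose slightly (0.22, adjusted p = 0.0381, and 0.0507 in the edgeR fit with the mouse as a block), and the demethylase Alkbh5 (-0.30) and the reader Ythdc2 (-0.60) fell. The largest changes belonged to decay factors of AU-rich mRNAs. Zfp36 had a log2 fold change of 1.02. Zfp36l1 went from 31.3, 29 and 29.9 to 184, 173 and 167 CPM (log2 fold change 2.54, SE 0.09, adjusted p = 1.95e-10) and Zfp36l2 fell from 426, 422 and 400 to 183, 181 and 180 CPM (log2 fold change -1.20, SE 0.06, adjusted p = 9.44e-09), in opposite directions.

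The KO response was then compared with that of WT macrophages, in which 6428 genes (50.0%) were called. Of the 6784 genes called in KO, 6476 had a fold change of the same sign in WT, 5106 were also called there in the same direction, and 40 were called in the opposite direction. A further 1638 were called in KO and not in WT, which does not show a difference. The test of the difference between the responses (KO minus WT, adjusted p under 0.05) called 416 genes, or 3.24% of those tested, with 143 more positive in KO (1.11%) and 273 more negative (2.13%). With the mouse as a block it called 1003 genes. The differences were mostly small, as 126 of the 143 and 261 of the 273 were below 1 on the log2 scale. Of the 143 genes, 50 had log2 fold changes of the same sign and larger in KO, 43 of the same sign and smaller, and 50 of opposite sign. Of the 273 genes these numbers were 136, 74 and 63. The signs include responses that were not called, such as those of Fas in KO (0.15) and Slfn5 in WT (0.04). The number ranged from 183 (without WT M0 replicate 2) to 643 (without WT M0 replicate 1) when 1 library was left out, and the cause was not tested. It was 173, 61 and 35 without both libraries of KO mouse 1, 2 and 3, and 193 to 267 without WT M2 replicate 2, any KO M0 library or KO M2 replicate 2 or 3. Among the named differences, those of Msmo1, Mvd, Nfkb1, Rtp4 and Slfn5 (11), Fas, Maf and Prdm10 (12), Tlr8 and Ust (15) and Batf (16) also lost their call in many of 23 alternatives.

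**Figure D4:**
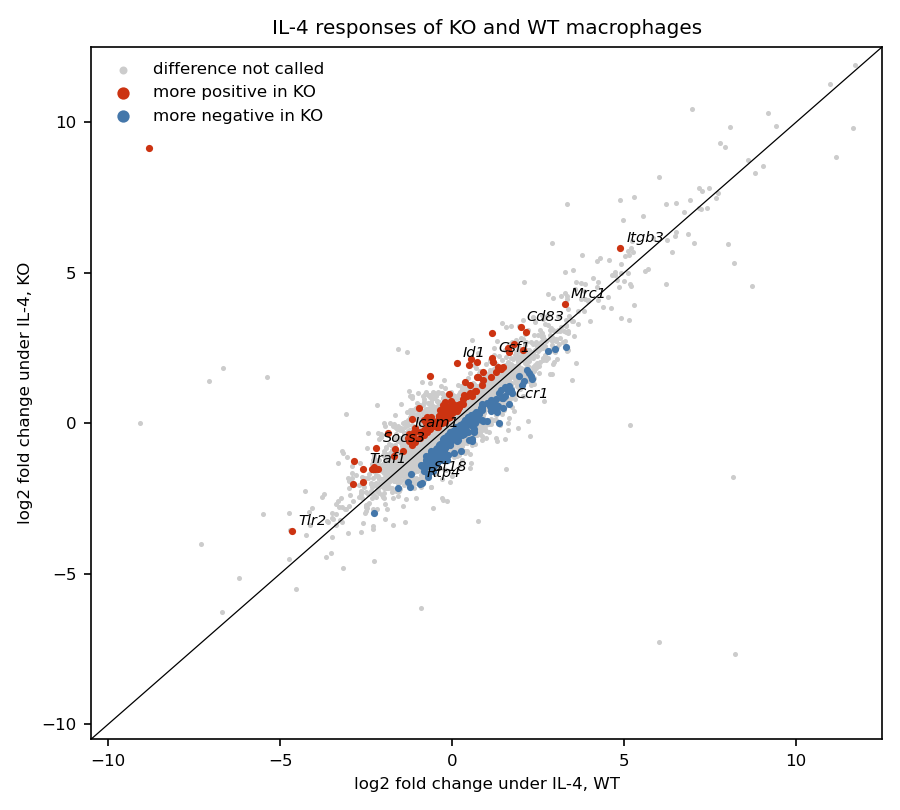
IL-4 responses of KO and WT macrophages. The x axis gives the log2 fold change of M2 against M0 in WT and the y axis that in KO, each point is one of 12846 genes, the line marks equal responses, and red and blue mark genes whose response was more positive or more negative in KO at an adjusted p under 0.05. Most genes lie along the line, and the red point at the upper left is the pseudogene Gm12191, named after its values were seen, which was at 0 CPM in WT M2, in KO M0 and in 1 of 3 KO M2 libraries.

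Among the lists, the effectors of alternative activation held 2 called differences in 22 genes. Mrc1 rose more in KO (difference 0.69, SE 0.14, adjusted p = 0.0233), from a mean of 145 CPM in KO M0, where WT M0 had 262 CPM, to 2258 CPM in KO M2, where WT M2 had 2532 CPM. This call was lost in 11 of 23 alternatives. The elastase Mmp12 rose less (difference -0.38, SE 0.07, adjusted p = 0.0154). For Retnla the difference was 0.28 (adjusted p = 0.972) and for Clec7a -0.32 (SE 0.14, adjusted p = 0.247), neither of which passed the test. The SE derived from the test was 2.50 for Retnla, although those of its responses were 0.52 in KO and 0.53 in WT. It is no measure of spread for a gene with so few counts in M0. Over all tested genes 3.24% had a called difference.

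The transcription factors held 6 called differences in 25 genes, where 3.24% of all tested genes had one. Id1, an inhibitor of basic helix-loop-helix factors and target of BMP signals, showed the most positive of the called differences among genes averaging 5 CPM or more (difference 1.86, SE 0.13, adjusted p = 4.19e-05). It had 14.7, 15.7 and 14.4 CPM in WT M0, 16.7, 17 and 15.3 CPM in WT M2, 4.7, 3.85 and 4.15 CPM in KO M0 and 18.5, 16 and 15.8 CPM in KO M2. The groups overlapped in WT and were fully separated in KO, where the untreated libraries were the low ones. Its relative Id3 also had lower values in KO M0 (mean 2.58 CPM) than in WT M0 (11.3 CPM) and fell less under IL-4 (difference 1.62, SE 0.26, adjusted p = 0.00741). Cebpb (0.82), Batf (0.82) and Id2 (0.52) had positive and Maf (-0.60) a negative difference.

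Inflammatory genes held 6 called differences in 17 genes, all positive. Over all tested genes 3.24% had a called difference and 1.11% a positive one. Tnf had means of 124 CPM in WT M0 and 24.6 CPM in WT M2, and of 77.2 CPM in KO M0 and 27.2 CPM in KO M2 (difference 0.82, SE 0.13, adjusted p = 0.00596). Ptgs2 (0.84), Nfkb2 (0.79), Nfkbia (0.53), Tnfaip3 (0.45) and Nfkb1 (0.42) were the others, with calls lost in 5, 0, 3, 6 and 11 of 23 alternatives. Tlr2 showed the same arrangement, with 177, 218 and 219 CPM in WT M0, 8, 6.86 and 9.2 CPM in WT M2, 103, 109 and 97.6 CPM in KO M0 and 7.31, 9.42 and 8.67 CPM in KO M2 (difference 1.07, SE 0.17, adjusted p = 0.00627). For both genes the genotypes lay further apart without IL-4 than with it. Traf1 (1.05), Nlrp3 (0.77), the adhesion molecule Icam1 (0.92) and the death receptor Fas (1.32) also had more positive responses in KO. Fas had 5.91, 6.15 and 5.12 CPM in KO M0 and 6.03, 6.05 and 6.97 CPM in KO M2, which overlapped, while its log2 fold change in WT was -1.16.
Socs3 fell in both genotypes, from 26.4, 34 and 31.3 to 6.09, 6.75 and 6.95 CPM in WT and less in KO (difference 1.38, SE 0.22, adjusted p = 0.00755). Cd83, a glycoprotein of activated antigen-presenting cells, rose from 3.56, 2.69 and 2.61 to 12.5, 10.9 and 12 CPM in WT and from 1.18, 1.35 and 1.69 to 14.3, 13 and 12 CPM in KO (difference 1.21, SE 0.21, adjusted p = 0.00955). Cd40 had means of 13 CPM in WT M0, 39.7 CPM in WT M2, 9.69 CPM in KO M0 and 54.9 CPM in KO M2, with a difference of 0.89 (SE 0.12, adjusted p = 0.00405).

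**Figure D5:**
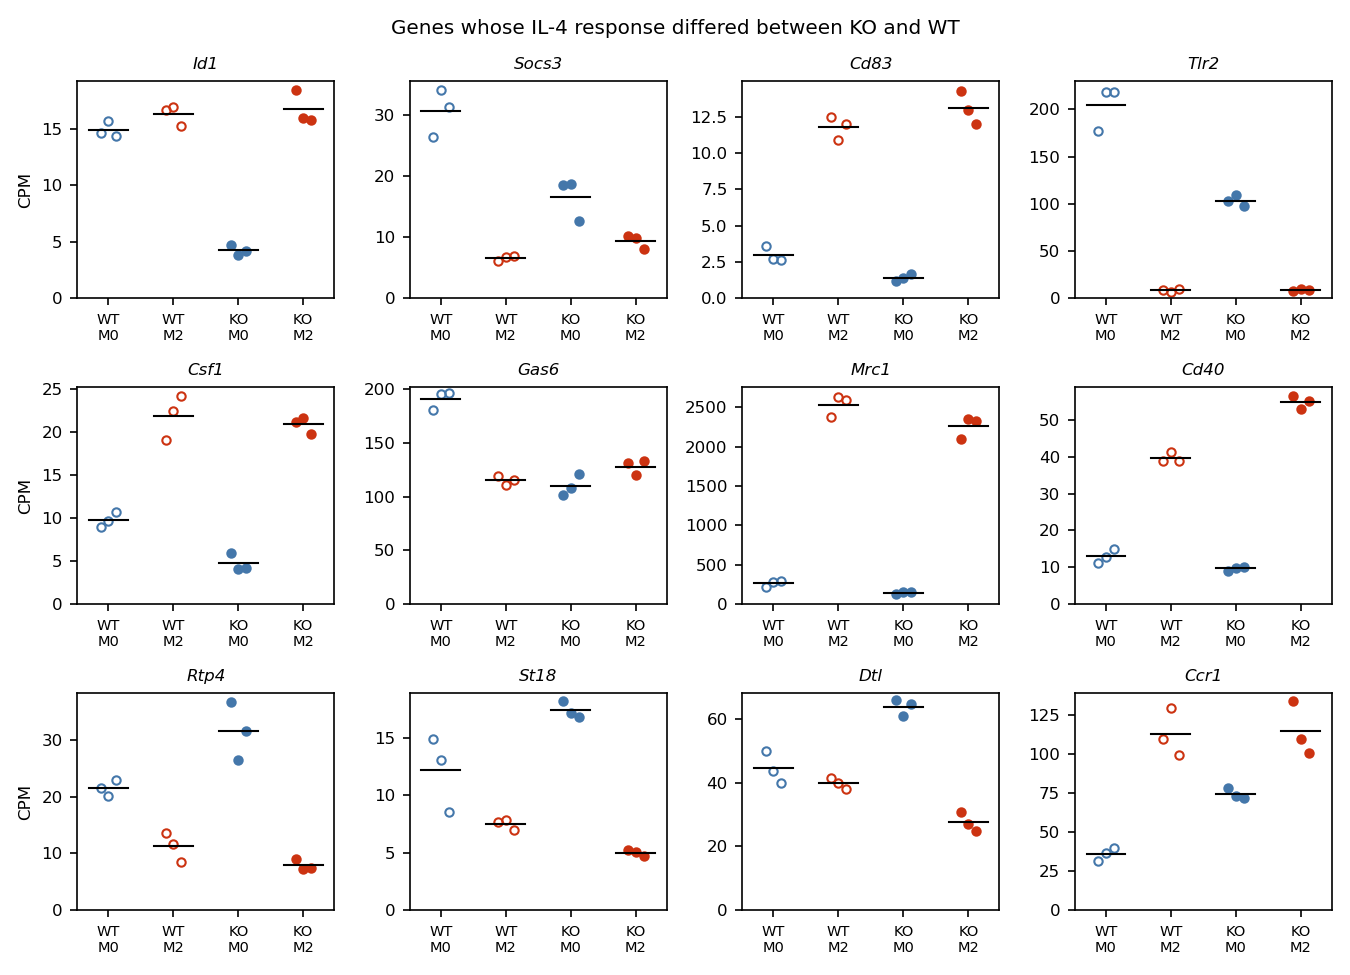
Levels in all 12 libraries of 12 genes whose IL-4 response differed between KO and WT. The y axis is CPM on a linear scale from 0, points are libraries (open WT, filled KO, blue M0, red M2) and bars are group means, n = 3. From Id1 to Cd40 the 3 KO M0 libraries lie below the 3 WT M0 libraries, and for Rtp4, St18, Dtl and Ccr1 they lie above them.

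Described as well were 11 cell migration genes, part of a list of the study. The study chose them for low levels in untreated KO macrophages of these samples. Since KO M0 also enters the response and its difference from WT, neither is independent evidence, and the choice favours positive differences. Under IL-4, 4 rose and 4 fell in KO (median -0.35), with Carmil1 (-2.79) and Bcar1 (-2.48) falling most, and the 5 called differences, all positive, are a description only. Csf1, the macrophage growth factor, went from 8.99, 9.69 and 10.7 to 19.1, 22.5 and 24.2 CPM in WT and from 5.91, 4.08 and 4.23 to 21.2, 21.7 and 19.8 CPM in KO (difference 0.99, SE 0.18, adjusted p = 0.0128). Gas6, the ligand of TAM receptors, went from 181, 196 and 197 to 119, 111 and 116 CPM in WT and from 102, 108 and 121 to 131, 120 and 133 CPM in KO, where the groups overlapped (difference 0.95, SE 0.09, adjusted p = 0.00114).

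More negative responses in KO were found for interferon-stimulated genes, 5 of 26, for genes of cholesterol synthesis, 4 of 24, and for cell cycle genes, 3 of 34, with 0 positive differences in these lists and 2.13% more negative over all tested genes. Of these calls, those of Irf9 (13 of 23 alternatives), Rtp4, Msmo1 and Mvd (11 each) were often lost. Rtp4 went from 21.5, 20.1 and 23 to 13.7, 11.6 and 8.54 CPM in WT and from 36.8, 26.5 and 31.6 to 9, 7.24 and 7.46 CPM in KO (difference -1.08, SE 0.22, adjusted p = 0.0211), and Oasl2 had a difference of -0.84. In cholesterol synthesis they were Msmo1 (-0.69), Stard4 (-0.68), Mvd (-0.63) and Insig1 (-0.46), and in the cell cycle Mcm3 (-0.50), Mcm4 (-0.46) and Mcm2 (-0.45), calls that were lost in 6, 14 and 13 of 23 alternatives. The 8 most negative differences included those of Ung, the uracil-DNA glycosylase (difference -1.16, SE 0.21, adjusted p = 0.0118), and Dtl, which marks replication factors for degradation (difference -1.05, SE 0.12, adjusted p = 0.00257).
Dtl had 50, 43.9 and 40 CPM in WT M0, 41.6, 40 and 38.2 CPM in WT M2, 66.1, 61.2 and 64.7 CPM in KO M0 and 31, 27.2 and 24.9 CPM in KO M2. The chemokine receptor Ccr1 rose from 31.3, 36.7 and 39.6 to 110, 130 and 99.3 CPM in WT and less in KO (difference -1.04, SE 0.17, adjusted p = 0.00755), and so did Tlr4 (-0.74), Tlr8 (-0.66) and Zfp36l1 (-0.77). St18 (-1.10), Rnf150 (-1.05), Slfn5 (-1.04) and Prdm10 (-1.04) completed the 8 most negative differences, and Ust (1.00) the 8 most positive. Slfn5 belongs to a family of similar genes, for which the same holds as for the Fc receptors. For Stat6 the called difference was small, -0.23 (SE 0.06, adjusted p = 0.048), and lost its call in 16 of 23 alternatives.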

How the data were processed

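RNA-Seq of BMMs from 3 KO and 3 WT mice, each untreated and IL-4-treated, gave 12 libraries of single reads of 75 bases from a directional poly(A) kit. The authors checked reads with FastQC 0.11.2 and ran the Grape-nf pipeline against GRCm38/mm10; the tool that estimated the counts is not given in the sources used here, nor whether counting used strand. For each library the authors deposited 1 expected count and 1 TPM value, the level per length, for each of 38887 genes (37570 with a symbol). Log2 fold changes and p-values that the authors deposited from DESeq2 1.40.2 were not used.

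Expected counts were rounded and tested with edgeR 4.0.16 (TMM, filterByExpr, quasi-likelihood F-test) in R 4.3.3, in 1 fit of all 12 libraries with a coefficient per group, so that all groups shared the estimate of spread (common coefficient of variation 8.1%). P-values were adjusted over 12846 genes by Benjamini-Hochberg, and genes under 0.05 were called. CPM use TMM factors (0.961 to 1.041). Intervals and floors cover counting error only. Depth in WT ranged from 20011792 to 29832430 counts.

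Libraries with the same number in their titles were taken as those of 1 mouse. Their deviations from the group means correlated at 0.103 to 0.364 within mice against -0.324 to 0.066 between mice, and since every pair was over 0.1 the block by mouse was read as a paired analysis. Alternatives were DESeq2 1.42.0, RLE factors, other filters, limma 3.58.1 on log2(TPM + 1) and log2(TPM + 0.1), the block, KO libraries alone, thinning to 20011771 counts, and leaving out libraries. Leaving out both libraries of a mouse was added after seeing the data. The members and gene lists were chosen with earlier results of these data known. Named were the 15 largest increases and decreases (called, mean of at least 5 CPM, same direction in 3 mice), the 10 highest genes and the 10 largest gains and losses by TPM, the 8 largest called differences in each direction, members of the lists on IL-4 signalling, effectors, factors, chemokines and inflammation, and the 2 largest changes each way in other lists. Further list members, and the genes with a called difference in a list, were named after their values were seen. A few genes that these rules name are not reported here. Coordinates are those of GENCODE M21 (GRCm38), and promoters those of RefSeq (GRCm38.p6).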

Additional observations from a re-analysis of the deposited data

Results flagged for a closer look

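The IL-4 response differed between KO and WT for 416 genes by the interaction test in edgeR (Benjamini-Hochberg adjusted). The named genes with a more positive response in KO included Pdgfc (1.84), which went from 0.233 ± 0.0533 to 1.86 ± 0.37 CPM in KO, Id1 (1.86), Id3 (1.62), Socs3 (1.38), Fas (1.32), Cd83 (1.21), Tlr2 (1.07), Traf1 (1.05) and Ust (1.00). The growth and repair factors Csf1 (0.99), Gas6 (0.95) and Pdgfa (0.82), the adhesion genes Itgb3 (0.93) and Icam1 (0.92) and the receptors Cd40 (0.89) and Mrc1 (0.69) belonged to the same group. So did the inflammatory genes Ptgs2 (0.84), Tnf (0.82), Nfkb2 (0.79), Nlrp3 (0.77), Nfkbia (0.53), Tnfaip3 (0.45) and Nfkb1 (0.42), the factors Cebpb (0.82), Batf (0.82) and Id2 (0.52), and the polyamine enzymes Odc1 (0.68) and Srm (0.41). Odc1, the ornithine decarboxylase, had means of 406 CPM in WT M0, 260 CPM in WT M2, 277 CPM in KO M0 and 282 CPM in KO M2.

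More negative in KO were Ung (-1.16), St18 (-1.10), Rtp4 (-1.08), Dtl (-1.05), Rnf150 (-1.05), Slfn5 (-1.04), Prdm10 (-1.04), Ccr1 (-1.04) and Ralgps1 (-0.70). The receptors Tlr4 (-0.74) and Tlr8 (-0.66), the interferon genes Oasl2 (-0.84), Stat2 (-0.38) and Irf9 (-0.34), and the sterol genes Msmo1 (-0.69), Stard4 (-0.68), Mvd (-0.63) and Insig1 (-0.46) followed. The replication genes Mcm3 (-0.50), Mcm4 (-0.46) and Mcm2 (-0.45), the mRNA decay factor Zfp36l1 (-0.77), the factors Maf (-0.60) and Stat6 (-0.23) and the elastase Mmp12 (-0.38) were the remaining ones. Gm12191, a pseudogene with 0 CPM in all KO M0 and WT M2 libraries, had a fitted difference of 17.94 (adjusted p = 0.048), a size that rests on values of 0. These calls were lost in 15 of 21 alternatives for Pdgfc, in 14 of 21 for Gm12191, and in 15 of 23 for Ralgps1, 13 for Irf9, 9 for St18, 7 for Oasl2 and Itgb3 and 6 for Stat2.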

How the results depend on the processing

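The count of genes called in KO (6784) ranged from 5430 (without both libraries of mouse 3) to 7472 (with the replicate block) over all alternatives. The count of genes whose response differed from WT (416) moved more. It was 825 with DESeq2, 113 with limma on either TPM scale, and 1003 in the paired analysis with the replicate block, which included all 416. With RLE factors it was 430, without a filter 444, at 5 CPM or more 499 and after thinning 364. Leaving out 1 library gave 183 to 643, with the lowest values without WT M0 replicate 2 (183), WT M2 replicate 2 (193), KO M2 replicate 3 (194), KO M0 replicates 3, 2 and 1 (201, 210 and 212) and KO M2 replicate 2 (267), and the highest without WT M0 replicate 1 (643). Leaving out both libraries of KO mouse 1, 2 or 3, added after seeing the data, gave 173, 61 and 35. The cause was not tested. Of 225 genes named and called in KO, 203 kept call and direction in every alternative that could be fitted. Calls lost most often were those of Mettl3 (13 of 19), Igf2bp3 and Osm (11), Klf2 and Oas1a (10), Zbp1 (9), Ftl1 and Maf (7), Cxcl3 and Slc2a6 (6), and Stat2, Gas6 and Olr1 (5). Among genes that were not called, Tpt1 changed sign without KO M0 replicate 3 (0.02) or KO M2 replicate 2 (0.01) and without both libraries of mouse 2 (0.02) or 3 (0.01), Dcstamp without KO M0 replicate 1 (0.03) or KO M2 replicate 3 (0.04; range -0.19 to 0.04), and Odc1 with limma on both scales (-0.05). Of 54 named differences, 10 were called in every alternative (Id1, Socs3, Traf1, Dtl, Tlr4, Icam1, Cd40, Gas6, Nfkb2 and Odc1). Of 722 counts of called list members under alternatives, 698 stayed within 1.5 times. The block changed the call of Cebpb, Ctsd and Mettl3 among the named genes. Medians near 0 changed sign for IL-4 signalling (-0.13 without mouse 2), feedback and chemokine receptors (-0.02 with limma) and fatty acid genes (-0.06 with limma). The median of co-stimulation, 0.53 in the main fit and thus not near 0, was -0.12 at 5 CPM or more.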
